A study of Sus scrofa with 24 samples.

Results

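CASQ2, ATP2A2 and S100A1 are 3 calcium handling genes best known from slow and cardiac muscle, and they were followed here in the loin muscle of pigs. They were chosen by gene symbol, taking every probe set of the array that its annotation assigns to 1 of these genes. That gave 7 probe sets, 2 for CASQ2, 4 for ATP2A2 and 1 for S100A1, among 23999 probe sets other than controls, and 3 of 6765 named genes. The genes were picked with their signals in these pigs already known, so their differences between fats and between sexes are given as descriptions, without a test. MYH7, the myosin heavy chain of slow fibres, has 1 probe set and is shown beside them. Probe sets of a gene are numbered by their mean signal, from 1 for the highest, which is the leading one.

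Total RNA of longissimus dorsi, the long muscle of the loin, came from 24 crossbred pigs (Landrace × Large White × Duroc), with 1 array of porcine oligonucleotide probe sets per pig. The feed contained soybean oil, coconut oil, beef tallow or olive oil at 3.0%, and 3 gilts (young females) and 3 barrows (castrated males) were sampled from each fat, which makes 6 pigs to a fat and 12 to a sex. The trial held 72 pigs in 24 pens, 3 to a pen and 6 pens to a fat, with an average weight of 71 ± 1 kg and an age of about 130 days at allotment. All 4 groups of diets carried an added fat, and the labels do not tie the sampled pigs to pens. The p-values therefore measure the spread between these pigs, with no allowance for pens.

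In striated muscle, calcium leaves the sarcoplasmic reticulum through a release channel to start contraction and is pumped back to end it. Calsequestrins bind calcium inside the reticulum, SERCA pumps return it from the cytosol, and small EF-hand proteins bind it in the cytosol and act on the channels and pumps. Slow and fast fibres use different forms of several of these proteins. CASQ2 encodes the cardiac calsequestrin, which slow fibres also make, and ATP2A2 encodes SERCA2, the pump of slow fibres and heart. S100A1 encodes an EF-hand protein of heart and skeletal muscle that binds the release channel and SERCA. The fast fibre counterparts are CASQ1 and ATP2A1.

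Signals are in arbitrary linear units and differences are on the scale of log2(signal + 1), in the order barrow minus gilt. Signals of different probe sets have no common scale, so levels are compared only between pigs. Of the 7 probe sets, 6 had a mean log2 signal at or above the 40th percentile of the array, a signal of 86.3, and were among the 14399 tested probe sets. The array mean signal lay between 782 and 903, and the median between 138 and 174. The arrays of pigs 12, 11 and 16 had the lowest mean correlation with the others (0.907, 0.925 and 0.927), and results that change without them are said below. All 4 skeletal muscle markers with a probe set (CKM, TTN, NEB and DES) passed the filter, with a summed signal of 98218 to 174852 in gilts and 116189 to 188647 in barrows.

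The leading CASQ2 probe set and S100A1 were each lower in barrows than in gilts by more than 1 log2 unit. The leading ATP2A2 probe set and MYH7 differed by -0.11 and -0.15 with overlapping ranges. CASQ2 probe set 2, under the filter level in all 24 pigs, differed by -0.20 ± 0.34 (SE). Over both sexes, the fats overlapped for every probe set of the 4 genes. The CASQ2 probe set with the higher signal was 2.48-fold lower in barrows and the S100A1 probe set 2.40-fold lower. Across pigs of the same fat and sex, the leading ATP2A2 probe set and MYH7 rose and fell together, and S100A1 had no called relation with either.

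**Figure D1:**
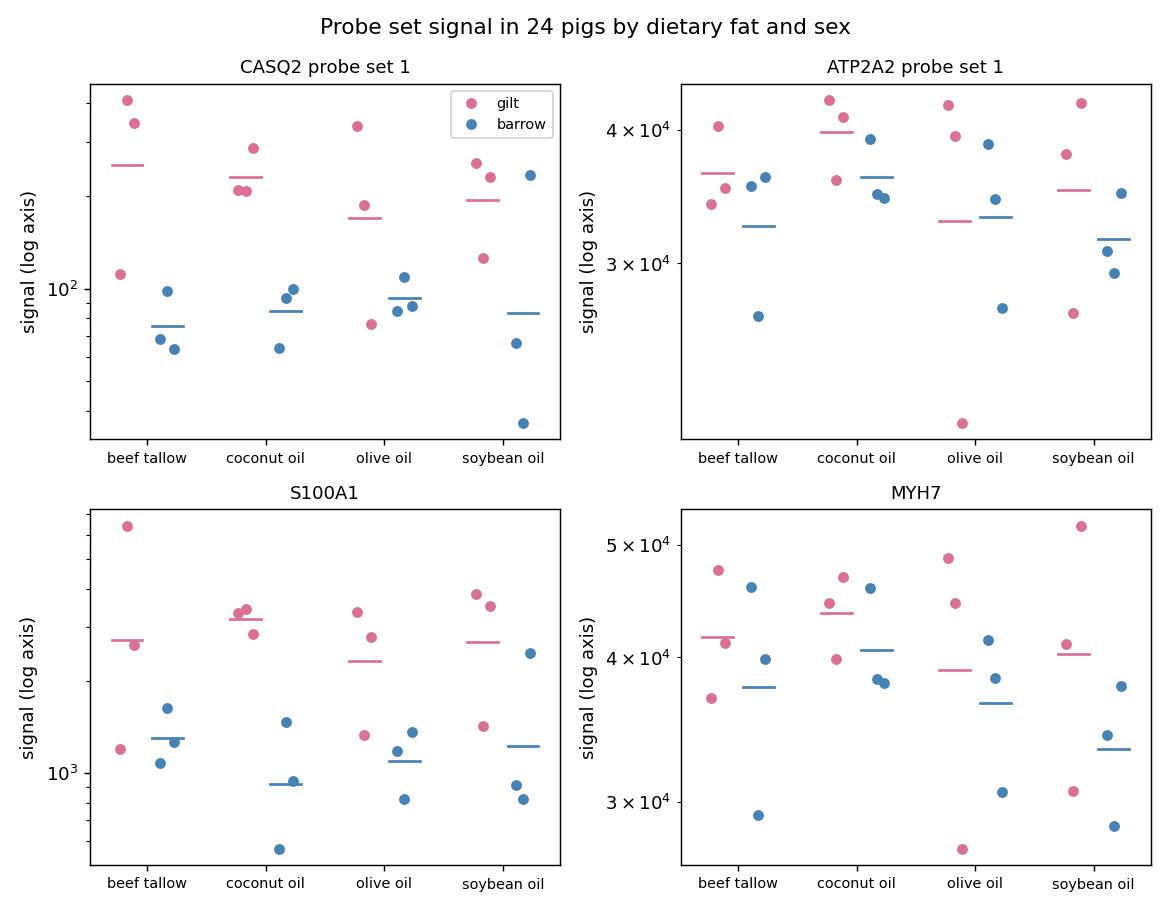
Signal of the leading CASQ2, ATP2A2 and S100A1 probe sets and of MYH7 (arbitrary units, log axis) in each of 24 pigs, by dietary fat, with gilts and barrows side by side. Points are pigs and bars are means of log2(signal + 1) of 3 pigs turned back to signals. CASQ2 ran from 77.0 to 410 in gilts and from 36.6 to 234 in barrows, whereas the ATP2A2 and MYH7 ranges of the sexes overlapped almost fully.

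CASQ2 stores calcium in the reticulum. With beef tallow, its leading probe set gave signals of 111, 346 and 410 in the 3 gilts and 63.8, 68.5 and 98.3 in the 3 barrows. With coconut oil, the gilts were at 207, 208 and 286 and the barrows at 64.3, 93.1 and 99.8. In both of these fats every barrow lay below every gilt. With olive oil, the gilts were at 77.0, 186 and 336 and the barrows at 84.5, 87.4 and 109. With soybean oil, the gilts were at 126, 229 and 255 and the barrows at 36.6, 66.7 and 234. The sexes overlapped in these fats through 1 pig each, gilt 12 at the low end with olive oil and barrow 19 at the high end with soybean oil.

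Over all fats, the CASQ2 signal had a median of 219 in gilts (range 77.0 to 410) and 86.0 in barrows (36.6 to 234). On the log2 scale the means were 7.71 ± 0.72 and 6.41 ± 0.63 (SD, n = 12 each). The difference was -1.31 ± 0.28 (SE), with 5 barrows below the lowest gilt and 11 of 12 below the gilt mean. Within the fats it was -1.44 with coconut oil, -1.72 with beef tallow, -1.21 with soybean oil and -0.86 with olive oil (SE 0.56 each). Without pig 12 it was -1.45, and without pigs 11, 12 and 16 it was -1.40. In bulk muscle, fewer cells or fibres of a type and less RNA per cell cannot be told apart.

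These CASQ2 signals were low for the array. The mean signal of barrows, 83.8, lay under the filter level of 86.3, and that of gilts, 209, above it. Signals under the filter level occurred in 6 barrows and 1 gilt, so the low end of the CASQ2 range is less well measured than the high end. CASQ2 probe set 2 stayed between 3.07 and 41.0, under the filter level in all 24 pigs, and was not tested. Its sex difference was -0.20 ± 0.34 (SE), and its deviations did not track those of the first probe set (r = -0.11 over 24 pigs). The 2 CASQ2 probe sets therefore do not give the same picture, and the difference between gilts and barrows rests on 1 of them.

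S100A1 binds calcium in the cytosol. With beef tallow, its signals were 1194, 2615 and 6441 in the 3 gilts and 1079, 1261 and 1633 in the 3 barrows. With coconut oil, the gilts were at 2846, 3330 and 3426 and the barrows at 565, 943 and 1470. The sexes did not overlap with coconut oil, while with beef tallow gilt 2 lay among the barrows. With olive oil, the gilts were at 1330, 2788 and 3347 and the barrows at 819, 1183 and 1356. With soybean oil, the gilts were at 1427, 3513 and 3838 and the barrows at 823, 914 and 2464. In each of these fats the lowest gilt lay under the highest barrow.

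Over all fats, the S100A1 signal had a median of 3088 in gilts (range 1194 to 6441) and 1131 in barrows (565 to 2464). The log2 means were 11.40 ± 0.71 and 10.14 ± 0.55 (SD, n = 12 each). The difference was -1.26 ± 0.26 (SE), with 7 barrows below the lowest gilt and 12 of 12 below the gilt mean. It was -1.79 with coconut oil, -1.06 with beef tallow, -1.12 with soybean oil and -1.08 with olive oil (SE 0.53 each). It was -1.15 without pigs 11, 12 and 16. Every S100A1 signal was far above the filter level, unlike those of CASQ2.

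The highest gilt and the highest barrow were the same pigs for both genes, while the lowest gilt and the lowest barrow differed. Gilt 8, fed beef tallow, had the highest signal of all 24 pigs for CASQ2 (410) and for S100A1 (6441). Barrow 19, fed soybean oil, had the highest barrow signal for CASQ2 (234) and for S100A1 (2464). The lowest pig was barrow 14 for CASQ2 (36.6) and barrow 15 for S100A1 (565). Gilt 12 had the lowest gilt signal for CASQ2 (77.0) and an S100A1 signal of 2788, near the gilt median. Gilt 2 had the lowest gilt signal for S100A1 (1194) and a CASQ2 signal of 111, also low for a gilt.

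ATP2A2, the calcium pump, showed smaller differences than S100A1 or the leading CASQ2 probe set. Its probe set 1 had a median signal of 38769 in gilts (range 21267 to 42703) and 34728 in barrows (26788 to 39268), a difference of -0.11 ± 0.11 (SE). The ranges overlapped almost fully, and the lowest pig was gilt 12. The mean of this probe set lay at the 99.8th percentile of the array and that of MYH7 at the 99.9th, and whether differences are compressed at such signals was not tested. Within the fats the difference was -0.14 with coconut oil, -0.17 with beef tallow, -0.15 with soybean oil and 0.01 with olive oil (SE 0.23 each).

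The other ATP2A2 probe sets gave differences of -0.31 to -0.23. Probe set 2 ran from 521 to 916 in gilts (median 736) and from 392 to 867 in barrows (median 562), a difference of -0.31 ± 0.12 (SE) with 4 barrows below the lowest gilt. Probe set 3 ran from 518 to 897 in gilts and from 422 to 817 in barrows, a difference of -0.23 ± 0.11 (SE). Probe set 4 ran from 168 to 586 in gilts and from 123 to 326 in barrows, a difference of -0.29 ± 0.19 (SE). All 4 ATP2A2 probe sets were thus lower in barrows on average, by 0.11 to 0.31 on the log2 scale, and each overlapped between the sexes.

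Within a sex, some pairs of fats did not overlap for ATP2A2 probe sets 2, 3 and 4, MYH7 and CASQ2 probe set 2. All pairs of fats were looked at in both sexes, for every probe set of the calcium genes and for MYH7. The pairs of fats named here are all that did not overlap within a sex, and most pairs overlapped. Groups of 3 pigs can separate by chance, and the separations are no more frequent than chance would give. No effect of a fat is read from them, and these are descriptions without a test. For MYH7, barrows fed soybean oil lay below those fed coconut oil (-0.28 ± 0.23, SE). For CASQ2 probe set 2, under the filter level throughout, gilts fed soybean oil lay above those fed beef tallow (0.67 ± 0.68, SE). In gilts, soybean oil lay above olive oil for ATP2A2 probe set 4 (0.65 ± 0.37, SE). In barrows, coconut oil (-0.53) and olive oil (-0.39) lay below beef tallow for probe set 3 (SE 0.22 each). Probe set 2 is given in full. In gilts, the signals were 521, 742 and 916 with beef tallow, and 562, 718 and 750 with coconut oil. In barrows, they were 551, 781 and 858 with beef tallow, and 392, 510 and 535 with coconut oil. Barrows fed coconut oil lay below all barrows fed beef tallow (-0.59 ± 0.24, SE), and the gilts of these fats overlapped (-0.08 ± 0.24, SE). Within fats, barrows lay below all gilts with coconut oil (-0.50) and olive oil (-0.38), overlapped them with soybean oil (-0.40), and were level with them with beef tallow (0.02, SE 0.24 each).

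MYH7, the slow myosin, had a median signal of 42890 in gilts (range 27354 to 51992) and 38190 in barrows (28599 to 46033). Its difference of -0.15 ± 0.12 (SE) was near that of the leading ATP2A2 probe set and far from those of the leading CASQ2 probe set and S100A1. The gilt and barrow ranges of MYH7 overlapped in each of the 4 fats. The difference ran from -0.27 with soybean oil to -0.10 with olive oil.

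**Figure D2:**
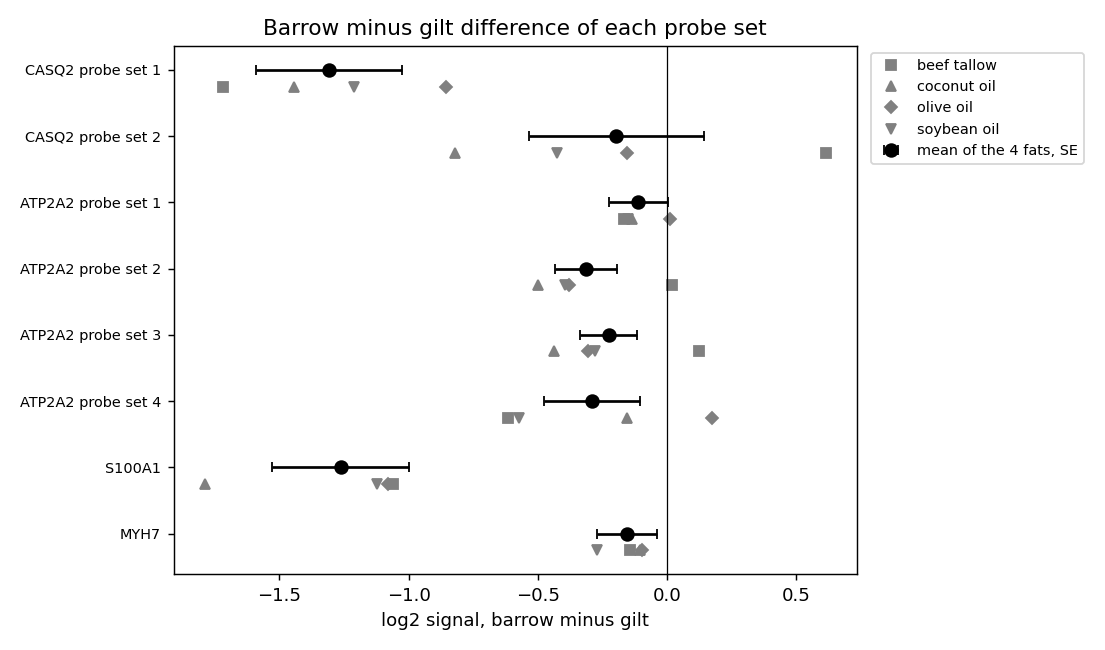
Barrow minus gilt difference of log2(signal + 1) for the 7 probe sets of the calcium genes and for MYH7. Black points with bars are the mean over the 4 fats ± SE (12 pigs per sex), and grey symbols are the differences within each fat (3 pigs per sex). The leading CASQ2 probe set (-1.31) and S100A1 (-1.26) lie apart from the ATP2A2 probe sets (-0.31 to -0.11) and MYH7 (-0.15).

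The sex test across the array gives the background for these values. limma called 687 of 14399 tested probe sets at an adjusted p under 0.05, which is 4.77%, with 361 (2.51%) lower in barrows and 326 (2.26%) higher. The median difference of all tested probe sets was -0.02. Of the 6 tested probe sets of the calcium genes, 2 were past the threshold, the leading CASQ2 probe set and S100A1, both lower in barrows. Since the genes were chosen with these values known, nothing is read from that count.

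The fats were compared with both sexes averaged. Over the 6 pairs of fats, the CASQ2 differences lay between -0.15 and 0.02 (SE 0.40), and those of S100A1 between -0.24 and 0.19 (SE 0.37). By fat, the median CASQ2 signal was 153 with coconut oil (range 64.3 to 286), 105 with beef tallow (63.8 to 410), 177 with soybean oil (36.6 to 255) and 98.0 with olive oil (77.0 to 336). The fats overlapped widely, and so no order among them is given. The median S100A1 signal was 2158 with coconut oil (565 to 3426), 1447 with beef tallow (1079 to 6441), 1946 with soybean oil (823 to 3838) and 1343 with olive oil (819 to 3347), again with wide overlap.

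For the leading ATP2A2 probe set, the median signal was 37584 with coconut oil (34582 to 42703), 35377 with beef tallow (26788 to 40371), 32861 with soybean oil (26963 to 42383) and 36616 with olive oil (21267 to 42191). Coconut oil minus beef tallow was 0.14 for it and 0.09 ± 0.16 (SE) for MYH7. The same pair gave -0.34 ± 0.17 (SE) for ATP2A2 probe set 2, opposite in sign to the leading probe set. In the test of coconut oil against beef tallow, 161 probe sets (1.12%) were called and none of the calcium genes was among them. The F test over the 4 fats in limma called 0% of the probe sets, with 1676 at an unadjusted p under 0.05.

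Whether the sex difference varied with the fat was not part of the choice of these genes and was tested. The limma F test of this fat by sex interaction called 0% of all tested probe sets, with 895 at an unadjusted p under 0.05 and a smallest adjusted p of 0.778. The limma adjusted p was 0.938 for CASQ2, 0.936 for S100A1, 0.983 for the leading ATP2A2 probe set and 0.985 for MYH7. For the other ATP2A2 probe sets it was 0.861 for probe set 2, 0.824 for probe set 3 and 0.851 for probe set 4. No interaction was called, and the SE of 0.56 of the CASQ2 sex difference within a fat shows how coarsely 3 pigs per group measure it.

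The deviations of pigs from the mean of their own fat and sex group do not hold the differences used in choosing the genes, and were compared over 24 pigs by permutation within groups. ATP2A2 and MYH7 had r = 0.95 and rho = 0.95, with an adjusted permutation p of 6e-05 over the 6 relations among the 4 genes, the smallest that 100000 permutations can give here. The r was 0.97 in gilts, 0.93 in barrows, 0.94 without pig 12 and 0.92 without pigs 9 and 12, which lay farthest from the median. Both probe sets also followed the mean signal of the array, with r of 0.83 for ATP2A2 (adjusted permutation p = 0.00416 over 8 relations) and 0.89 for MYH7 (0.00112). The part of the array mean in the relation between ATP2A2 and MYH7 was not tested. Without the 2 pigs farthest out, those r were 0.64 and 0.77.

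CASQ2 was related more loosely to the other genes. CASQ2 and S100A1 had r = 0.67 and rho = 0.67 (adjusted permutation p = 0.0374 for r). This r fell to 0.36 without pigs 2 and 19, which lay farthest from the median for CASQ2. It rose to 0.82 without pig 12 (adjusted permutation p = 0.00519). Without pigs 11, 12 and 16 it was also 0.82 (0.0110), so its size depends on the pigs included. The r was 0.61 in gilts and 0.77 in barrows. CASQ2 had r = 0.55 (rho = 0.43) with MYH7 and 0.54 (rho = 0.42) with ATP2A2, each with an adjusted permutation p of 0.0374 for r. Both were strong in gilts (0.82 and 0.78) and weak in barrows (0.16 and 0.11), a contrast that was not itself tested. Without gilt 12 they fell to 0.40 and 0.35 and no longer passed. The calls of CASQ2 with S100A1, MYH7 and ATP2A2 were lost on leaving out 11, 12 and 12 of the 24 pigs, each in turn, and are weak ones.

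S100A1 had no called relation with the slow fibre pair. Its r was 0.20 with MYH7 (rho = 0.17, adjusted permutation p = 0.522) and 0.16 with ATP2A2 (rho = 0.22, adjusted permutation p = 0.560). With MYH7 it was 0.40 in gilts and -0.16 in barrows, and with ATP2A2 0.28 and -0.13. Without pigs 11, 12 and 16 the values were 0.37 with MYH7 and 0.33 with ATP2A2 (adjusted permutation p = 0.218 for each). The r of S100A1 with the array mean was 0.06 and that of CASQ2 was 0.36, neither past the threshold. Among the ATP2A2 probe sets, those numbered 2 and 3 moved together (r = 0.76, rho = 0.76, adjusted permutation p = 0.0144 over 28 relations; 0.68 without pigs 2 and 13). The leading ATP2A2 probe set had r of 0.06, 0.00 and 0.05 with the others. The ATP2A2 result with MYH7 is therefore that of 1 probe set of 4.

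**Figure D3:**
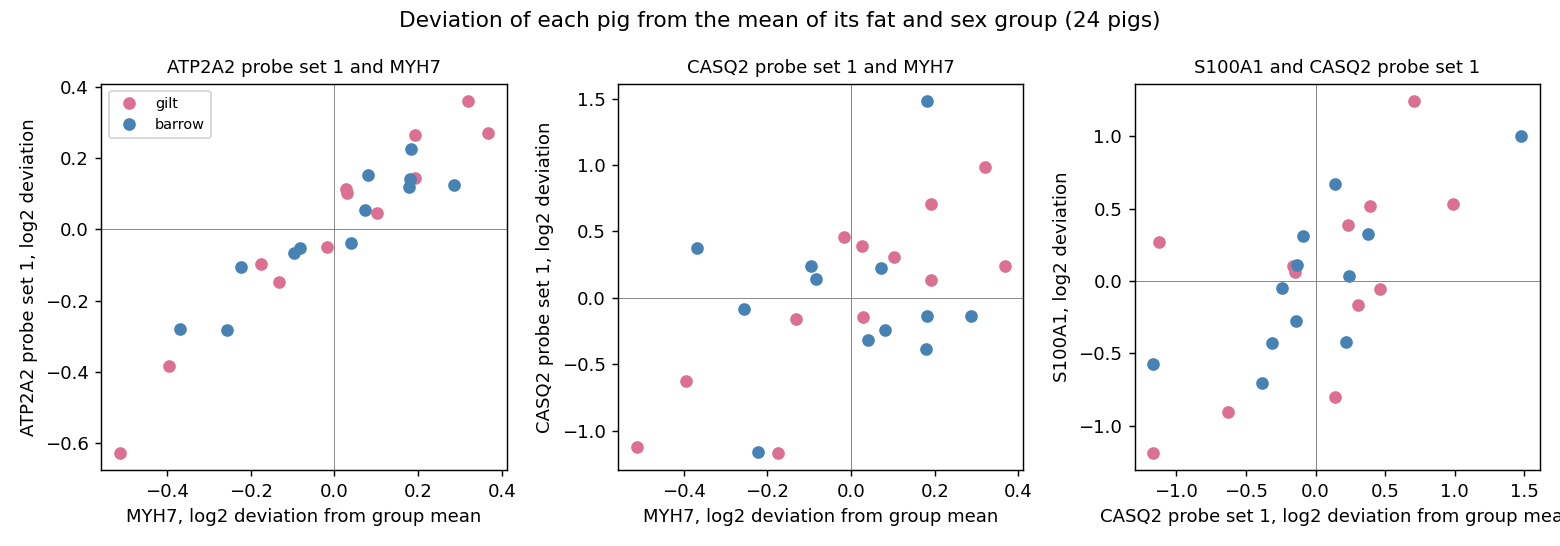
Deviation of log2(signal + 1) from the mean of each fat and sex group in 24 pigs, for ATP2A2 (leading probe set) against MYH7, CASQ2 against MYH7 and S100A1 against CASQ2, with gilts and barrows coloured apart. ATP2A2 and MYH7 lie close to a line (r = 0.95), and CASQ2 and MYH7 spread more (r = 0.55). S100A1 and CASQ2 follow each other with an r of 0.67 that depends on the pigs included.

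The genes most like each of the calcium genes were named by the same deviations, over 7238 probe sets with 1 symbol, as a description over 24 pigs. For ATP2A2 they were MYH7 (r = 0.95), the Z-disc protein genes TCAP (0.94) and ACTN2 (0.91), MYBPC1, which encodes slow myosin binding protein C (0.94), and the slow troponin I gene TNNI1 (0.93). The lowest were POGLUT1 (-0.88) and DEGS1 (-0.87), which encode a glucosyltransferase and a ceramide desaturase, and ARV1 (-0.86). Sarcomere genes thus made up the ATP2A2 end. For CASQ2 the highest were BMP1 (0.77), a procollagen protease gene, ACTC1 (0.75), the cardiac actin gene, P2RY2 (0.73), a nucleotide receptor gene, IVD (0.73), of leucine breakdown, and ABLIM1 (0.72), an actin binding protein gene. The lowest were WDR70 (-0.82), the scramblase gene ANO6 (-0.79) and N4BP2L2 (-0.77).

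For S100A1 the highest were the kinase gene FYN (0.80), the microtubule protein gene MAP1A (0.79), 2 probe sets of ABLIM1 (0.79 and 0.78) and C1H9orf16 (0.79). The lowest were GTF2F2 (-0.84), of the general transcription machinery, the formin gene FHOD3 (-0.79) and HIVEP2 (-0.77). ABLIM1 was the only gene named at the high end for both CASQ2 and S100A1. Across the 8 tested slow fibre genes the median r was 0.89 for ATP2A2, 0.44 for CASQ2 and 0.17 for S100A1. Their ranges were -0.28 to 0.95, 0.15 to 0.55 and 0.04 to 0.63 in the same order. Across the 8 tested fast fibre genes it was 0.67 for ATP2A2, 0.20 for CASQ2 and -0.25 for S100A1. ATP2A2 therefore ran with abundant fast genes as well, such as the fast troponin C gene TNNC2 (0.85) and its own fast counterpart ATP2A1 (0.69).

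Markers of other cell types are given beside the CASQ2 and S100A1 differences. None of the tested markers in 10 cell type lists was called between the sexes, against 4.77% of all probe sets. Only 1 to 7 markers per list were tested, so the lack of a call says little about the cells present. The heart muscle list, whose genes share cardiac expression with CASQ2 and S100A1, had 4 of 5 genes with a probe set, of which 1 passed the filter. Its summed signal was 172 to 359 in gilts and 142 to 269 in barrows, a log2 difference of -0.33. The Schwann cell list had 2 of 5 genes with a probe set, MBP and S100B. Its sum was 697 to 4405 in gilts and 521 to 1962 in barrows (-0.67). The adipocyte list had 4 of 6, with a sum of 7526 to 35982 in gilts and 5970 to 25789 in barrows (-0.56). The smooth muscle and endothelial sums each differed by -0.27. The sexes overlapped in every one of these sums, and their part in the CASQ2 and S100A1 differences was not tested. The 3' to 5' log2 ratio of GAPDH, a sign of RNA integrity, had a median of 0.18 in gilts and 0.17 in barrows. That of actin was higher, with a median of 1.26 in gilts (range 0.96 to 1.66) and 1.23 in barrows (0.88 to 1.84).

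The rest of the pathway was followed in a list of 84 other calcium handling genes, of which 47 had a probe set and 38 were tested through the probe set of highest mean. Between the sexes, 3 were higher in barrows, 1 was lower and 34 did not pass. That is 10.5% called against 4.77% of all probe sets, and the median difference of the list was 0.02 against -0.02. The 4 were listed under cytosolic binding or effectors. Only 6 storage genes and 6 uptake and extrusion genes were tested, so at that background no contrast between roles is read from this. PPP3CA and PPP3CB, which encode catalytic subunits of the calcium-activated phosphatase calcineurin, were higher in barrows by 0.47 ± 0.11 and 0.35 ± 0.10 (SE; limma adjusted p 0.0209 and 0.0472). CALM3, a calmodulin gene, was higher by 0.40 ± 0.11 (0.0324). RCAN1, an inhibitor of calcineurin, was lower in barrows, with a difference of -0.89 ± 0.21 (0.0183).

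RCAN1 signals ran from 5901 to 16178 in gilts (median 11080) and from 3098 to 10452 in barrows (median 5868), with 11 of 12 barrows below the gilt mean. Its second probe set gave -1.04 (limma adjusted p = 0.0142). PPP3CA ran from 1949 to 3336 in gilts and from 2486 to 4746 in barrows, and its other probe sets gave 0.36 and 0.35 without passing. The RCAN1 and PPP3CA calls held on leaving out any 1 pig. CALM3 did not pass without pig 4, 5, 10, 11, 12, 14, 17, 19, 21, 23 or 24, and of its 6 probe sets a second one passed (0.53, limma adjusted p = 0.0348) while the other 4 lay between -0.09 and 0.02. PPP3CB passed in 5 of the 24 runs, those without pig 1, 2, 7, 9 or 22, and its other probe sets gave 0.27 and -0.16 without passing. With no signal filter, none of the 4 passed.

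The fast counterpart of ATP2A2, the pump regulators and the release channels did not pass between the sexes. The fast pump ATP2A1 differed by 0.25 ± 0.11 (SE, limma adjusted p = 0.188), and all 12 barrows lay above the gilt mean. Its second probe set gave 0.50 (limma adjusted p = 0.120). The pump regulators sarcolipin (SLN) and phospholamban (PLN) gave -0.02 ± 0.10 and 0.07 ± 0.15 (limma adjusted p 0.940 and 0.829). The release channel RYR1 gave 0.07 ± 0.14, and RYR3, a channel with less expression in adult muscle, gave -0.84 ± 0.26 (limma adjusted p = 0.0686). No probe set was named CASQ1 or PVALB, the fast calsequestrin and the fast cytosolic calcium buffer parvalbumin.

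By role, none of the 6 tested calcium release genes, 6 storage genes, 6 uptake and extrusion genes, 3 store-operated entry genes and 2 mitochondrial genes passed between the sexes. In cytosolic binding 1 of 5 passed, and among effectors 3 of 10. Against 4.77% of all probe sets, roles with so few genes cannot be told apart by these counts. Between coconut oil and beef tallow, 0 of the 38 were called by limma, with 12 at an unadjusted p under 0.05. Of all 14399 tested probe sets, 2857 were at an unadjusted p under 0.05 in this pair. No effect of these fats on the list is read from the 12. The smallest adjusted p were those of the small EF-hand gene S100A11 (-0.89 ± 0.24, 0.0638), the kinase gene CAMK2G (0.61 ± 0.17, 0.0752) and S100A10 (-0.70 ± 0.21, 0.0795). S100A1 gave -0.14 ± 0.37 (SE) in the same pair. In that pair 4 of the 6 tested fibroblast markers (THY1, POSTN, DCN and COL1A2) and 1 of the 4 tested adipocyte markers (FABP4) were called, all lower with coconut oil, while COL3A1 gave 0.11. The fibroblast sum was 17829 to 25221 with coconut oil and 22695 to 61310 with beef tallow, and the adipocyte sum 5970 to 10295 and 7561 to 34308. Their part in the S100A10 and S100A11 values was not tested. The limma F test over the fats called 0 of the 38 (6 unadjusted, against 1676 of all 14399). S100A11 (0.251), CAMK2G (0.309) and S100A10 (0.337) had the smallest adjusted p. The limma interaction test called 0 of the 38 (1 unadjusted, against 895 of all 14399). Its smallest adjusted p in the list was 0.778, shared by S100A11, S100B, RCN1 and CALM3.

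**Figure D4:**
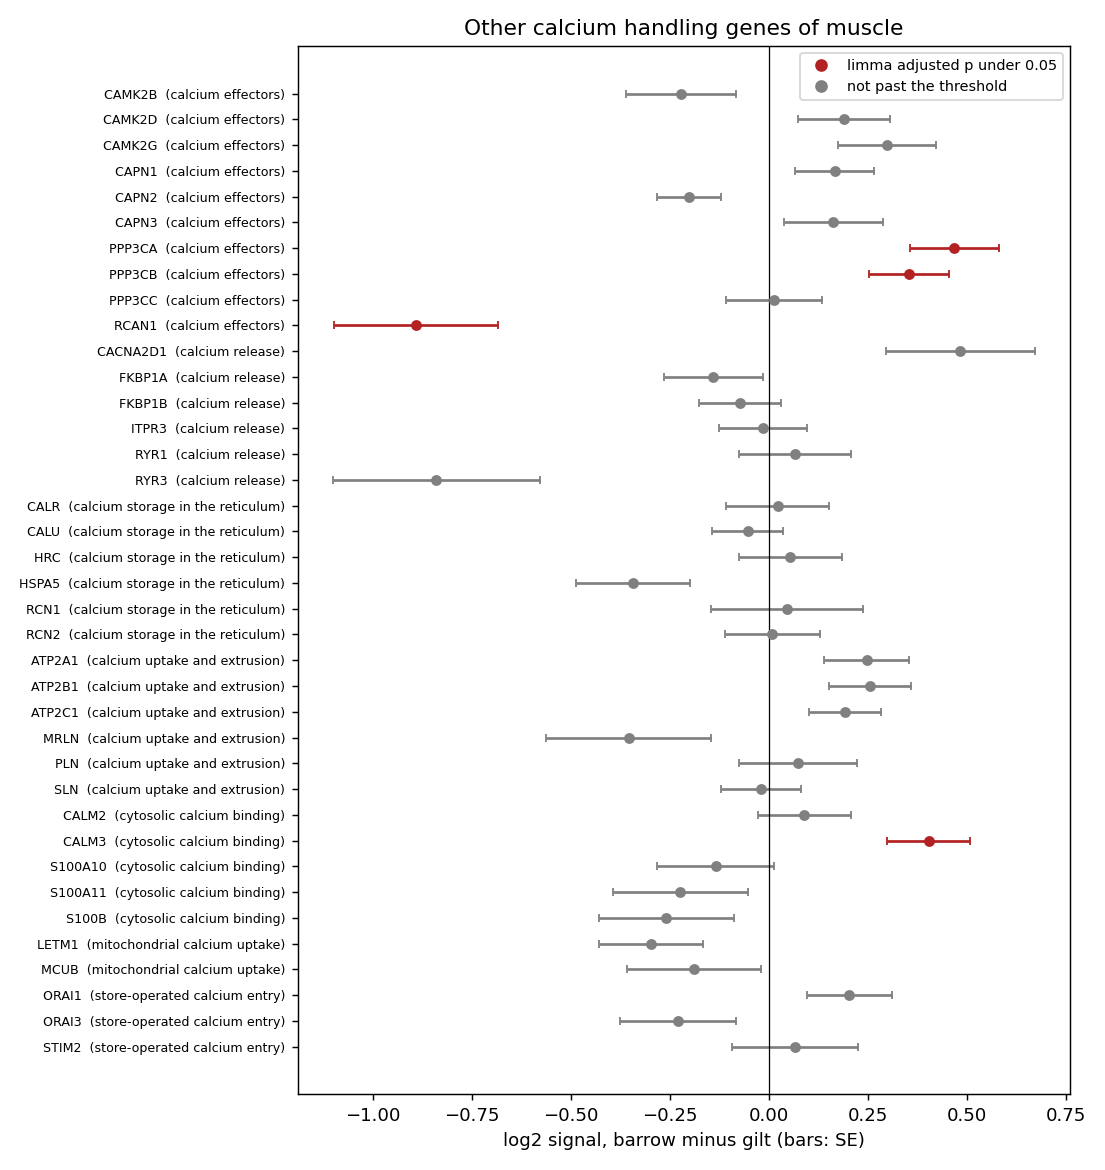
Barrow minus gilt difference of log2(signal + 1) ± SE for the 38 tested calcium handling genes other than CASQ2, ATP2A2 and S100A1, grouped by role (12 pigs per sex). Red points passed limma at an adjusted p under 0.05. The higher ones are PPP3CA (0.47), CALM3 (0.40) and PPP3CB (0.35), the lower one is RCAN1 (-0.89), and the storage and pump genes lie among the grey points.

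Against the fibre genes, the differences of the leading CASQ2 probe set and of S100A1 were larger than any in the slow fibre list. Both genes were chosen with their differences known, so this order is a description only. Slow fibre genes such as MYL2 and MYH7 had median signals of 43481 and 39891, where compression of differences was not tested. The median of PDLIM1 was 5270. All 8 tested slow fibre genes had negative values (median -0.16, against -0.02 for all tested probe sets), also after quantile normalization and median centring. Across pigs, MYH7, MYL2, MYL3, TNNI1, TNNT1 and TNNC1 each followed ATP2A2 with r of 0.88 to 0.95 (PDLIM1 0.52, TPM3 -0.28). The 8 signs are therefore not independent, and no shift of the list is read from them. Of the 8, 1 passed, PDLIM1 (-0.54 ± 0.14, SE, limma adjusted p = 0.0316), which encodes a Z-disc and stress fibre adaptor. That is 12.5% called, against 4.77% of all probe sets. The PDLIM1 call was lost without pig 3, 4, 5, 6, 8, 14, 15, 17, 22 or 23, and with arrays centred on their medians. The 8 tested fast fibre genes had a median of 0.13, and 0 passed in limma. The largest was the type 2A myosin MYH2 at 0.79 ± 0.25 (SE, limma adjusted p = 0.0705). ATP2A2, with -0.11, sat within the slow fibre range, which included the troponin I gene TNNI1 at -0.16 and the regulatory light chain MYL2 at -0.05.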

How the data were processed

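Muscle RNA of 24 pigs was measured, 1 array each. The deposited values are probe set signals, linear intensity units per the file headers; the summarisation and scaling methods are not given in the sources used here. A 2% trimmed mean of about 500.1 on every array shows a common scaling. From these intensity values log2(signal + 1) was computed, with no further normalization. Symbols came from the platform annotation (10069 probe sets had 1 symbol, 198 several and 13732 none) and assembly Sscrofa11.1 was used for names alone. limma 3.58.1 in R 4.3.3 was fitted to 8 group means over 14399 probe sets and checked on simulated data. Tests were two-sided, adjusted by Benjamini-Hochberg over all probe sets of a test, with a threshold of 0.05. Correlations used deviations from group means and 100000 permutations within groups.

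The 3 genes, the lists and the tests were chosen with earlier results of these data known. The named genes were CASQ2, ATP2A2, S100A1 and MYH7, their paralogs and pump regulators, list genes past a threshold (otherwise the 3 with the smallest p), and per gene the 5 highest and 3 lowest correlations. RYR1, RYR3, TNNC2, TNNI1, MYL2, the cell type markers and pigs singled out were named after their values were seen. The leading probe set of a gene was that of highest mean. Precision is limited by the number of pigs. Alternatives were other filters, scalings, pseudocounts and priors, an additive model, array weights, and leaving out pigs.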

Additional observations from a re-analysis of the deposited data

Results flagged for a closer look

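Of 32 groups of 6 pigs (8 probe sets, 4 fats) checked for a single pig far from the others, 2 held one, and chance gives about 1 in 20. For CASQ2 probe set 2, barrow 16 was the highest of the pigs fed beef tallow, with a signal of 41.0, and its gap to the next pig was 0.711 of the range on the log2 scale. That probe set was under the filter level in all 24 pigs. For ATP2A2 probe set 4, barrow 19 was the lowest of the pigs fed soybean oil, with a signal of 123 and a gap of 0.768 of the range. The same barrow had the highest barrow signals of CASQ2 and S100A1.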

How the results depend on the processing

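No paired analysis was possible because the pigs' numbers are unique and no number is shared between groups. The sex differences of the leading CASQ2 probe set and of S100A1 kept their sign under every alternative run. Their ranges were -1.59 to -1.16 (32 settings, since CASQ2 fell out under the filter at the 60th percentile) and -1.41 to -1.11 (33 settings). S100A1 was not past the limma threshold without pigs 11, 12 and 16. Since both genes were chosen with these differences known, their calls under the alternatives are no support for the differences. No alternative brought an interaction of fat and sex for the tested probe sets of the 3 genes past the threshold. The additive model has no interaction term.

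The count of sex calls was 302 with no filter, 1530 with array weights and 410 without pigs 11, 12 and 16. That of coconut oil against beef tallow was 6 with no filter, 279 with a filter at the 60th percentile, 53 after quantile normalization, 0 in the additive model, 1264 with array weights and 263 without pigs 11, 12 and 16. The F test over fats gave 4 with no filter and 68 with array weights. The calcium handling list gave 0 sex calls with no filter, and for coconut oil 1 with a filter at the 60th percentile and 7 with array weights. The slow fibre list gave 0 sex calls with no filter, with median centring and without pigs 11, 12 and 16.

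Leaving out 1 pig at a time gave 386 to 1059 sex calls, 0 to 663 for coconut oil, 0 to 25 for the F test over fats and 0 to 2 for the interaction. The calcium list gave 2 to 5 sex calls and 0 to 5 for coconut oil, and the slow fibre list 0 to 2 sex calls. The r of CASQ2 ran from 0.57 to 0.82 with S100A1, 0.35 to 0.62 with ATP2A2 and 0.40 to 0.68 with MYH7, and that of ATP2A2 with MYH7 from 0.94 to 0.96.

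CASQ2 and ATP2A2 no longer passed after quantile normalization (0.52), median centring (0.49), as Spearman rho (0.42), in barrows (0.11) and without pigs 11, 12 and 16 (0.36). CASQ2 and S100A1 no longer passed after quantile normalization (0.65), median centring (0.65), in gilts (0.61) and in barrows (0.77). CASQ2 and MYH7 no longer passed after median centring (0.50), as rho (0.43), in barrows (0.16) and without pigs 11, 12 and 16 (0.48). The cause was not tested; the runs within a sex hold 12 pigs. ATP2A2 and MYH7 passed in every run.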
